A study of Bos taurus with 24 samples.

Results

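Testes of Holstein bulls raised on a high-nutrition diet (HD) were compared with testes of bulls raised on a medium-nutrition diet (MD), the control diet of the study. The comparison used 16 of the 24 libraries in the series. These were all libraries labelled with a high diet (8 bulls) and all labelled with a medium diet (8 bulls), chosen by label alone. The HD diet held 20.0% crude protein and 67.9% total digestible nutrients (TDN), and the MD diet held 17.0% crude protein and 66.0% TDN. The other 8 bulls received a low-nutrition diet (LD) with 12.2% crude protein and 62.9% TDN. They entered the model to help estimate the spread between bulls and are given only beside the other diets, with no test. Diets were fed from 2 to 32 wk of age, all bulls then ate the same ration, and testicular tissue was taken at 72 wk. The question was therefore whether a difference in feeding before puberty was still visible in testicular mRNA after puberty. Each library came from a separate bull, so a bull was the unit of replication. In RNA from whole tissue, fewer cells of a type and less RNA per cell cannot be told apart.

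Spermatogenesis makes heavy demands on cellular energy, which germ cells draw from glycolysis and from oxidative phosphorylation in mitochondria. In oxidative phosphorylation, electrons pass along protein complexes of the inner mitochondrial membrane, and the proton gradient this builds drives ATP synthase. Most subunits of these complexes are encoded in the nucleus, but a small core set is encoded by mitochondrial DNA, whose transcripts are among the most abundant in most tissues.

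The deposited values were read counts on exon bins, the smallest pieces into which the annotated exons of a gene divide. Bins belonged to gene features identified by Ensembl identifiers, and the bins of a feature were added up to give its count. Levels are given as CPM, counts scaled to a common library size with TMM factors, and are not divided by the length of the feature. The column of Ensembl identifiers in the reference table used here was empty, so 0 of 24616 identifiers could be paired with a gene symbol, and symbols are given only for the 4 mitochondrial genes whose identifiers the text of the study states. For the same reason the tissue label was not checked against marker genes of testicular cell types, and the nuclear subunits of the respiratory chain were not analysed here. The library of HD bull 14 stood apart from those of the other HD bulls, and results that rest on it are given with and without it.

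Testes of HD and MD bulls differed modestly at many features. By edgeR's quasi-likelihood test, 2116 of 15005 tested features were differentially expressed at an adjusted p under 0.1 (14.1%), 1302 of them higher in HD bulls (8.68%) and 814 lower (5.42%). This split turned with the scaling between libraries, since with library size alone 542 features were higher and 3005 lower. Most of the 2116 features changed by well under 1 on the log2 scale. The median log2 fold change was 0.61 for those higher (10th to 90th percentile 0.44 to 0.94) and -0.66 for those lower (-0.97 to -0.44). A size of 1 or more was reached by 109 of the higher and 72 of the lower features.

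The edgeR calls were crowded close to the threshold. Only 1 feature had an adjusted p under 0.05, and 809 features shared the next smallest value of 0.0702. Just inside the threshold, 327 features had an adjusted p from 0.09 to under 0.1, and just outside it 332 had one from 0.1 to under 0.11. DESeq2 with defaults called 2937 features, and its second smallest adjusted p was 0.00301. Without adjustment, 4345 features (29.0%) had a p under 0.05. With only the HD and MD libraries in the edgeR fit, 1 feature was called and 3475 had an unadjusted p under 0.05, so the number of calls depended on the LD libraries. Leaving out any 1 of 8 bulls (HD bulls 7, 8 and 13, and MD bulls 4, 6, 16, 17 and 19) left 1 feature past the threshold. The count was 4019 without HD bull 12, 3596 without HD bull 14 and 3600 without MD bull 18.

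Complete separation of the diets was rare. In 7 features (0.0467%) the range of the 8 HD bulls did not overlap that of the 8 MD bulls, with 1 feature higher in HD bulls (0.00666%) and 6 lower (0.04%). All 7 were among the 2116. No feature with a count in every bull of 1 diet was without counts in every bull of the other, as the numbers of such features were 0 and 0.

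Each of the 3 mitochondrial features had a higher mean in HD bulls, 1 of the 3 past the threshold by edgeR beside 8.68% of all tested features, and the diets overlapped for all 3. Among the 419 tested features with 1 to 5 bins and at least 100 CPM, the class that holds these 3, 41.8% were higher in HD bulls and the median log2 fold change was 0.41. COX1 encodes the catalytic subunit of cytochrome c oxidase, the terminal complex of the respiratory chain. It lay at 11875 CPM in the lowest, 21114 in the median and 60606 in the highest HD bull. In MD bulls COX1 lay at 4893, 10705 and 28808 CPM. The diets overlapped widely for COX1, with 3 of 8 HD bulls (7, 8 and 13) above every MD bull and 5 of 8 MD bulls below every HD bull. COX1 had a log2 fold change of 0.99 with a standard error (SE) of 0.39 (adjusted p = 0.109 by edgeR), which missed the threshold.

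COX3 encodes another core subunit of cytochrome c oxidase, and ATP6 encodes a subunit of the proton channel of ATP synthase. They were counted in 1 feature together with a further overlapping gene. The count of this feature does not separate the genes, and its bins were not assigned to them here. This joined feature lay at 11223, 20114 and 46002 CPM in the lowest, median and highest HD bull and at 4180, 9038 and 22881 CPM in MD bulls. Here 4 of 8 HD bulls were above all MD bulls. The log2 fold change was 0.96 (SE 0.36), and by edgeR this was the only feature of the 3 mitochondrial ones past the threshold (adjusted p = 0.0948).

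CYB encodes cytochrome b, the mitochondrially encoded subunit of complex III. It lay at 3081, 5772 and 16675 CPM in the lowest, median and highest HD bull, and at 1473, 2843 and 7629 CPM in MD bulls. CYB had a log2 fold change of 0.96 (SE 0.38, adjusted p = 0.109 by edgeR), again short of the threshold. With DESeq2 in place of edgeR, CYB passed it (adjusted p = 0.0978 with defaults and 0.0934 with the beta prior), while COX1 did not (0.104 and 0.103). HD bull 8 was highest and MD bull 6 was lowest for both CYB and COX1. The bulls at the ends of the whole range were thus the same for these transcripts. Among HD bulls alone the lowest differed, being bull 12 for COX1 and bull 14 for CYB.

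The fold changes of the 3 mitochondrial features were smaller when the model was adjusted for a measure of the libraries. Counts on these features enter the denominators of the shares used, so the shares are not independent of them. When the model was adjusted for the share of reads outside annotated exons, the log2 fold changes were 0.31 for COX1, 0.39 for the joined feature and 0.28 for CYB (edgeR adjusted p = 0.460, 0.281 and 0.520). Adjusted for the share of low quality alignments they were 0.75, 0.72 and 0.68 (edgeR adjusted p = 0.360, 0.345 and 0.375). Without HD bull 14, a library that stood apart, they were 1.08, 1.03 and 1.07, and each passed the threshold (edgeR adjusted p = 0.0737, 0.0683 and 0.0659). Without HD bull 8 they were 0.75, 0.76 and 0.70, and none passed (edgeR adjusted p = 0.234, 0.200 and 0.243). The call of the joined feature was lost without any 1 of HD bulls 7, 8, 10 and 13 or MD bulls 4, 6, 16, 17 and 19 (adjusted p = 0.117 to 0.200 by edgeR). COX1 and CYB passed the threshold without any 1 of HD bulls 9, 11, 12 and 14 or MD bulls 5 and 18 (adjusted p = 0.0571 to 0.0838 by edgeR). The part of these library measures in the mitochondrial differences was not tested.

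Within the joined feature, HD bulls placed a smaller share of the counts on 3 of its 5 bins. The bins can belong to different genes. A share can therefore differ through the ratio between genes as well as through use within 1 gene. Bin 1 held 8.25 ± 1.57% (SD, n = 8) of the counts of the feature in HD and 9.71 ± 0.687% in MD bulls, and bin 2 held 6.25 ± 0.984% and 7.13 ± 0.441%. Bin 4, the smallest, held 0.875 ± 0.263% in HD and 1.09 ± 0.118% in MD bulls. Two-sided exact permutation tests gave p = 0.0270, 0.0281 and 0.0160 for bins 1, 2 and 4, which became 0.0469 for all 3 when adjusted over the 5 bins (Benjamini-Hochberg). Bins 3 and 5 held most of the counts and did not differ detectably, at 38.2% in both diets for bin 3 (exact permutation p = 0.989) and 46.4% against 43.9% for bin 5 (exact permutation p = 0.484).

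HD bull 14 stood apart within this feature. Its bin 3 held 58.4% of the counts, against 28.7 to 38.5% in the other HD bulls, and its bin 5 held 27.9%, against 43.6 to 59.2%. Without this bull the exact permutation p was 0.0474, 0.0432 and 0.0329 for bins 1, 2 and 4, and 0.102 and 0.0598 for bins 3 and 5. Adjusted over the 5 bins it was 0.0748 for bins 1, 2, 4 and 5, so that none passed 0.05 without this bull. The difference in bin 4 was -0.21 percentage points with and -0.12 without it. The difference in bin 5 was 2.51 percentage points with all bulls, 5.15 without HD bull 14, 0.677 without HD bull 13 and 0.781 without HD bull 8. The unadjusted exact permutation p for bins 1 and 2 was 0.0517 and 0.0508 without HD bull 13, and 0.0533 and 0.0575 without MD bull 19. For bin 2 the unadjusted p was also above 0.05 without MD bull 4, 15 or 16. All 5 bins had a higher mean CPM in HD bulls, by 0.68, 0.72, 0.87, 0.73 and 1.11 on the log2 scale from bin 1 to bin 5.

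Among features without a symbol, ENSBTAG00000002749 had the smallest p of all. It lay at 5.32 CPM in the lowest, 9.25 in the median and 14.1 in the highest HD bull, and at 1.87, 3.43 and 4.67 CPM in MD bulls. Every HD bull was above every MD bull, a separation in this direction that no other feature had. The log2 fold change of ENSBTAG00000002749 was 1.46 (SE 0.23, adjusted p = 0.0124 by edgeR). Its counts were low, from 29 to 192 reads in a library, and 1 of its 12 bins had a mean of at least 10 reads. LD bulls lay between 3.58 and 9.27 CPM and overlapped with both other diets.

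ENSBTAG00000000428, the higher feature with the next smallest p, lay at 25.5, 45.9 and 70.4 CPM in the lowest, median and highest HD bull, and at 15.8, 23.7 and 41.3 CPM in MD bulls. Of the HD bulls, 6 of 8 were above all MD bulls. The log2 fold change was 0.90 (SE 0.20, adjusted p = 0.0702 by edgeR), and each of its 5 bins was higher in HD bulls, by 0.82 to 1.02 on the log2 scale. The increase thus did not rest on 1 bin. The same reads gave the call, so this describes the call and does not support it.

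The features with the smallest p in the other direction had many bins. ENSBTAG00000016894, with 31 bins, lay at 10.7, 17.1 and 19.2 CPM in the lowest, median and highest HD bull, and at 20.2, 25.9 and 37.7 CPM in MD bulls. Every HD bull was below every MD bull. The log2 fold change of ENSBTAG00000016894 was -0.69 (SE 0.14, adjusted p = 0.0702 by edgeR). All 12 of its bins with a mean of at least 10 reads were lower in HD bulls, with log2 ratios from -1.17 to -0.15.

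ENSBTAG00000007163, with 30 bins, lay at 1.87, 3.61 and 4.54 CPM in the lowest, median and highest HD bull, and at 5.16, 6.21 and 8.36 CPM in MD bulls. Again the diets did not overlap. The log2 fold change was -0.81 (SE 0.16, adjusted p = 0.0702 by edgeR), from 21 to 118 reads in a library. Of its bins, 22 had no reads in HD or MD bulls and 2 had a mean of at least 10 reads, both lower in HD bulls. HD bull 13 was lowest for both of these features. Without any 1 of HD bulls 7, 8 and 13 or MD bulls 4, 6, 16, 17 and 19, ENSBTAG00000000428, ENSBTAG00000016894 and ENSBTAG00000007163 were no longer called (adjusted p = 0.107 to 0.162 by edgeR), whereas ENSBTAG00000002749 was called in every such fit.

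**Figure D1:**
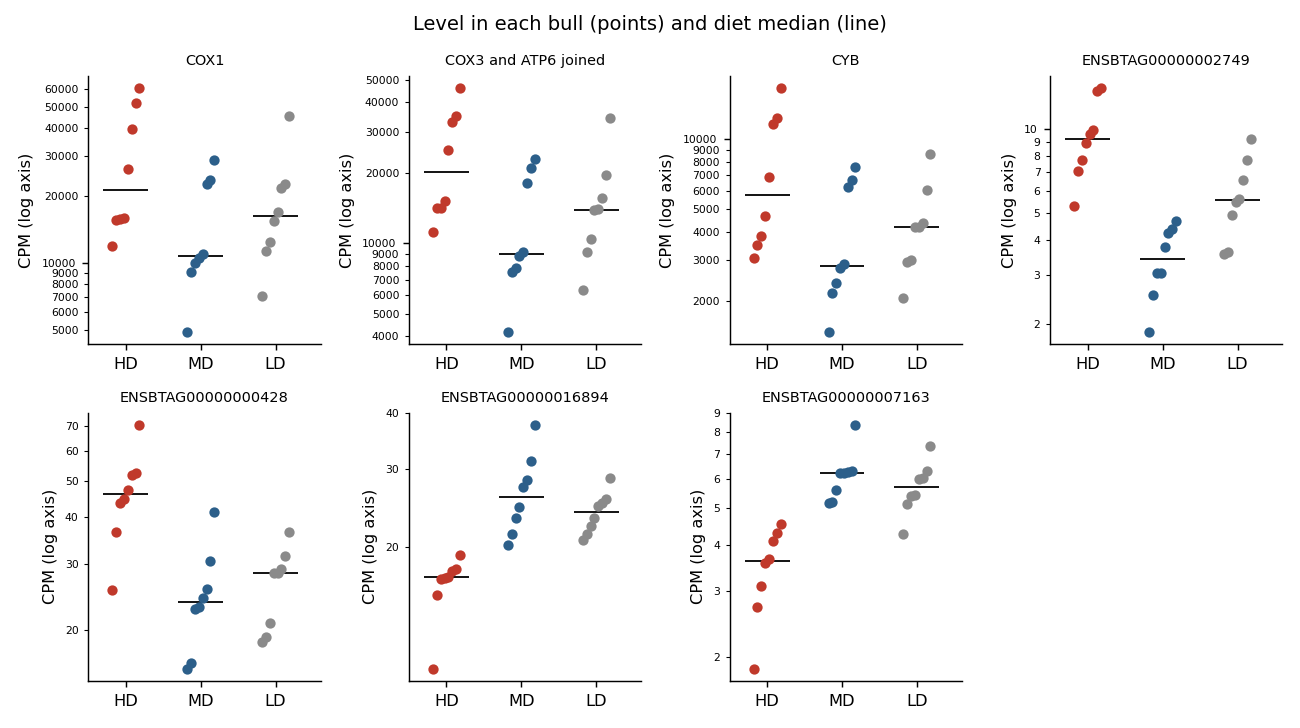
Level of the 3 mitochondrial features and the 4 features without a symbol in each bull, in CPM on a log axis, for HD, MD and LD bulls (8 each). Points are bulls and lines are diet medians. For ENSBTAG00000002749 the HD bulls (5.32 to 14.1 CPM) all lie above the MD bulls (1.87 to 4.67 CPM), whereas for COX1 the diets overlap.

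Features higher in HD bulls were more abundant and had fewer bins than those lower. The higher features had a median of 66.3 CPM and 6 bins, the lower features a median of 13.1 CPM and 15 bins, and all tested features a median of 18.6 CPM and 9 bins. When libraries were scaled by their size alone instead of by TMM, the median over all features shifted from 0.00 to -0.21 on the log2 scale, and 15.3% of 3547 called features were higher in HD bulls, against 61.5% with TMM. The direction of an absolute change therefore depends on the scaling, and the classes below are read relative to each other.

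**Figure D2:**
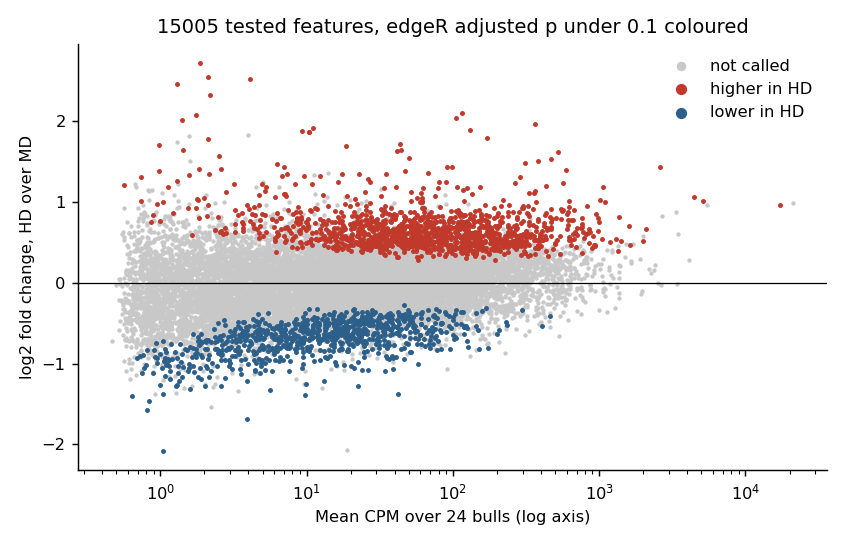
Log2 fold change of HD over MD bulls (vertical axis) against mean CPM over the 24 bulls (log axis) for the 15005 tested features, 1 point each. Red points are the 1302 features higher and blue points the 814 features lower in HD bulls at an edgeR adjusted p under 0.1, and the red points extend to higher CPM than the blue.

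Features with many bins had smaller shares higher and larger shares lower than features with few bins. Among 3565 features with 2 to 5 bins, 14.2% were higher and 2.89% lower in HD bulls. Among 4309 features with 11 to 20 bins the shares were 4.69% and 6.68%. The share lower was greatest, at 12.2%, among the 1413 features with 21 to 30 bins, of which 1.98% were higher. Among 763 features with 31 or more bins, 6 (0.786%) were higher and 89 (11.7%) lower. The median log2 fold change over all features of a class, called or not, went from 0.13 with 2 to 5 bins to -0.06 with 11 to 20 and -0.26 with 31 or more. The 628 features with 1 bin had 11.5% higher, 2.55% lower and a median of 0.08, below that of the next class.

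With rising level the share of higher features and the median log2 fold change rose, while the share of lower features rose and then fell. Among 2663 features under 3 CPM, 1.61% were higher and 4.62% lower in HD bulls, with a median log2 fold change of -0.15. The share lower was 7.62% of 3006 features from 3 to 10 CPM and 7.75% of 3381 features from 10 to 30 CPM. Among 3543 features from 30 to 100 CPM, 12.5% were higher and 4.69% lower, with a median of 0.07. Among 617 features at 300 CPM or more, 158 (25.6%) were higher and 2 (0.324%) lower, with a median of 0.24. As CPM is not divided by length, these classes mix abundance with feature length.

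When bins and level were crossed, the median log2 fold change rose with level in each class of bins and fell with bins in each class of level. The share of higher features was greatest among abundant features with few bins. Among 419 features with 1 to 5 bins and at least 100 CPM, 175 (41.8%) were higher and 1 was lower, with a median log2 fold change of 0.41. Features with 1 to 5 bins and under 10 CPM had 3.97% higher and 3.74% lower of 2115, with a median of -0.01. At the other end, 1133 features with 21 or more bins and 10 to 100 CPM had 1.5% higher and 16.2% lower, with a median of -0.26. With 21 or more bins and at least 100 CPM, 2.99% were higher and 4.58% lower of 502 features.

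**Figure D3:**
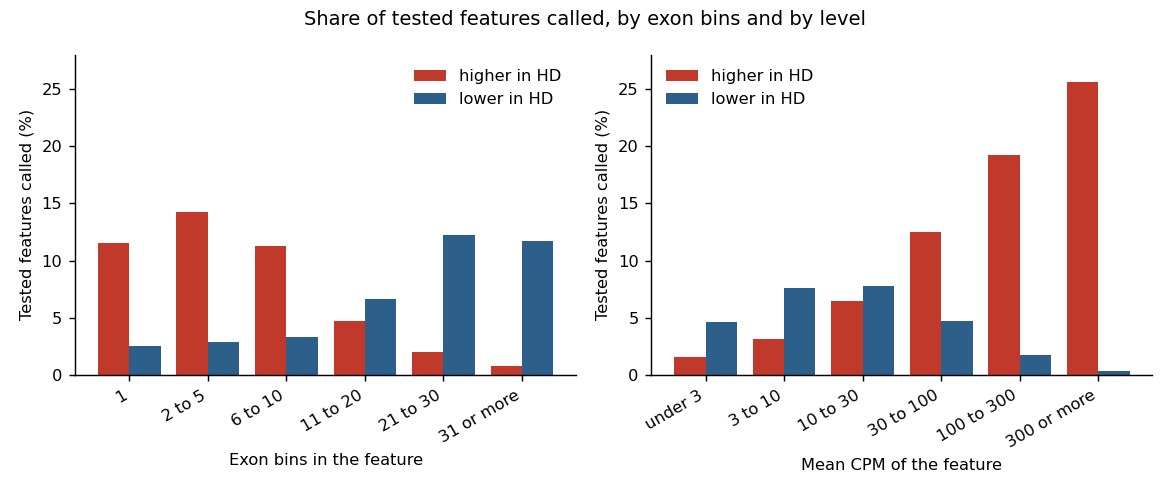
Percent of tested features called higher (red) or lower (blue) in HD bulls at an edgeR adjusted p under 0.1, by number of exon bins (left) and by mean CPM (right). The share of higher features runs from 14.2% with 2 to 5 bins to 0.786% with 31 or more, and from 1.61% under 3 CPM to 25.6% at 300 CPM or more.

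The contrast between few-bin and many-bin features was carried unequally by the bulls. It was summarised for each bull as the median deviation of the 4193 features with 1 to 5 bins minus that of the 763 features with 31 or more, on the log2 scale relative to the mean of all bulls. This gap lay at -0.23 in the lowest, 0.14 in the median and 0.83 in the highest HD bull. In MD bulls it lay at -0.45, -0.20 and 0.10. HD bulls 14 and 13 had the largest gaps, 0.83 and 0.66, whereas HD bulls 9, 11 and 12 had negative gaps within the range of the MD bulls. Between diets, the gap in median log2 fold change was 0.38, and it was 0.28 without HD bull 14 and 0.31 without HD bull 13. It was 0.24 when adjusted for reads outside exons and 0.37 with library size alone. The median log2 fold change was 0.12 with 1 to 5 bins and -0.26 with 31 or more. Without HD bull 14 these medians were 0.05 and -0.22.

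The gap also followed measures of the libraries across bulls. Against the share of ambiguous reads, which overlap more than 1 gene feature, the Pearson correlation (r) was 0.86 and the Spearman correlation (rho) 0.92 over the 16 bulls (permutation p = 2e-05 and 1e-05, the latter the smallest that 100000 resamples can give, and 0.00012 and 6e-05 adjusted over 6 relations). Within diets, r was 0.77 and rho 0.69 in HD bulls (exact permutation p = 0.0281 and 0.0694) and r was 0.94 and rho 0.93 in MD bulls (exact permutation p = 0.00057 and 0.00223). Leaving out HD bulls 7 and 13, whose shares were most extreme, gave r = 0.86.

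Against the share of reads outside exons the relation did not hold in both diets. Over the 16 bulls r was -0.46 and rho -0.70 (permutation p = 0.0737 and 0.00324, adjusted 0.0885 and 0.00486), and r was -0.23 without MD bulls 6 and 19, the farthest from the median. Without HD bull 14, r was -0.77 and rho -0.96 over the remaining bulls. Within MD bulls r was -0.85 and rho -0.98 (exact permutation p = 0.0026 and 0.000397), but within HD bulls r was -0.02 and rho -0.19 (exact permutation p = 0.961 and 0.665). HD bull 14 lay off the relation, having the largest gap together with the highest share of reads outside exons among HD bulls. Without it, r was -0.72 and rho -0.79 within HD bulls. The part of these library measures in the difference between the diets was not tested.

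Changes ran along whole features. Of the 1184 higher features with at least 2 bins of a mean of 10 reads or more, 1168 (98.6%) had every such bin higher in HD bulls. Of 548 lower features, 521 (95.1%) had every bin lower. Among 8995 features that were not called, 54.1% had all bins in 1 direction. The bins of a called feature come from the same reads that called it, so these shares describe the calls and do not support them. Among the 73 tested features that join overlapping genes, 7 (9.59%) were higher and 2 (2.74%) lower, beside 8.68% and 5.42% of all tested features.

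The use of single bins within a feature was tested apart from its level. In the limma diffSplice test of 11154 features with 108335 bins, 5 features (0.0448%) had a Simes adjusted p under 0.1, and 173 (1.55%) had an unadjusted p under 0.05. At an adjusted p under 0.05 there were 4 such features, against 1 for level. Of the 5, only ENSBTAG00000020455 was also called for its level (log2 fold change -0.39, edgeR adjusted p = 0.0927). The features described next were chosen after their values were seen.

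Bin 2 of ENSBTAG00000020455 took up a larger share of the feature in HD bulls. It held 18% of the counts in the lowest, 33.4% in the median and 57.1% in the highest HD bull, and 11.4, 16.9 and 26.9% in MD bulls. Of the HD bulls, 5 of 8 were above all MD bulls, and the difference in usage was 1.1 on the log2 scale (limma diffSplice adjusted p = 0.0123 for the feature). Bin 18 of ENSBTAG00000020878 held 10.6, 28.5 and 58.5% in the lowest, median and highest HD bull and 7.41, 14.4 and 24.4% in MD bulls, a difference in usage of 1.25 (limma diffSplice adjusted p = 0.0349), although the total of that feature did not differ detectably (edgeR adjusted p = 0.702).

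In the other direction, bin 1 of ENSBTAG00000001977 held 22.5, 34.9 and 42.1% of the counts in the lowest, median and highest HD bull and 40.6, 50.8 and 58.1% in MD bulls. Of the HD bulls, 7 of 8 were below all MD bulls, and the difference in usage was -1.05 (limma diffSplice adjusted p = 0.0257). Bin 4 of ENSBTAG00000020714 held 0, 0.308 and 10.1% in the lowest, median and highest HD bull and 0.244, 6.15 and 10.6% in MD bulls, with a difference of -2.46 (limma diffSplice adjusted p = 0.0123). For this bin 3 of 8 HD bulls were below all MD bulls, while the highest HD bull (10.1%) lay just below the highest MD bull (10.6%). These bins had 0 to 264 reads in a library. Of the 5 features, 1 remained past the threshold without HD bull 13, 3 without HD bull 14, and 2 without MD bull 4 or MD bull 19.

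HD bulls also differed more among themselves than MD bulls did. The SD between bulls of a diet, on the scale log2(CPM + 0.5), had a median over the tested features of 0.465 in HD bulls, against 0.315 in MD and 0.294 in LD bulls. It was larger in HD than in MD bulls for 11795 features (78.6%), and for 77.9% of the 12889 features that were not called. Without HD bull 14 the share was 67.9% and the median SD in HD bulls 0.393, and without HD bulls 13 and 14 the share was 63.3%. Between MD and LD bulls, the SD was larger in MD bulls for 57.8% of features. Features are not independent replicates, and with 8 bulls in a diet these shares were taken as a description without a test.

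HD bulls 14 and 8 lay farthest from the others of their diet. The median distance of a bull to the others of its diet was 0.598 for HD bull 14 and 0.527 for HD bull 8, and 0.228 to 0.367 for the other HD bulls. MD bulls lay between 0.161 and 0.368, with a median of 0.219, against 0.309 in HD bulls. Without HD bulls 8 and 14, a choice made after seeing these distances, the SD was larger in HD bulls for 57.7% of features and its median was 0.342, against 0.315 in MD bulls.

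**Figure D4:**
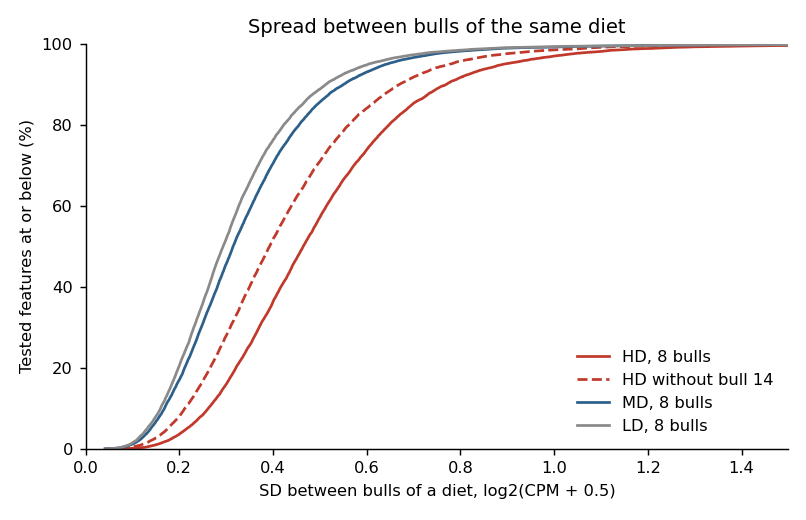
Percent of the 15005 tested features (vertical axis) whose SD between bulls of a diet, on the log2(CPM + 0.5) scale, is at or below the value on the horizontal axis. The HD curve lies to the right of the MD and LD curves (median SD 0.465, 0.315 and 0.294), and the dashed HD curve without bull 14 (median 0.393) lies between them.

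Depth did not differ detectably between the diets, whereas the counts of HD bulls were on average more concentrated on abundant features, with overlap between the diets. Libraries held 9163675 to 21902110 counts in HD and 11676948 to 16615608 in MD bulls (two-sided exact permutation test, p = 0.613). The 1000 most abundant features of a library held 51.4, 54.6 and 60.6% of its counts in the lowest, median and highest HD bull and 45.7, 50.3 and 53.7% in MD bulls. The means were 55.2 ± 3.18% and 50.4 ± 2.49% (SD, n = 8 each). The difference was 4.81 percentage points (exact permutation p = 0.00404, and 0.0323 adjusted over 8 library measures). The 100 most abundant features held 21.2 ± 3.71% in HD and 16.9 ± 2.47% in MD bulls (exact permutation p = 0.0162, adjusted 0.0646). The 10 most abundant held 8.83 ± 3.30% in HD and 5.72 ± 2.08% in MD bulls (exact permutation p = 0.0401, adjusted 0.0796). Neither of these measures passed 0.05 after adjustment. Counts on abundant mitochondrial features such as COX1 enter these shares, so the shares are not separate from the differences in those features.

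Of the measures of alignment, none passed an adjusted p of 0.05. The share of low quality alignments was 11.5 ± 5.18% in HD and 7.80 ± 1.33% in MD bulls (SD, n = 8 each, exact permutation p = 0.0497, adjusted 0.0796), with the highest HD bull at 21% and the highest MD bull at 10.1%. The difference was 3.68 percentage points with all bulls and 2.32 without HD bull 12, and its unadjusted p was above 0.05 in 11 of the 16 tests that left out 1 bull. The share of ambiguous reads was 0.277 ± 0.0588% and 0.221 ± 0.0371% (exact permutation p = 0.0418, adjusted 0.0796). Its unadjusted p was above 0.05 in 10 of the 16 such tests. Reads outside exons made up 12.3 ± 2.17% in HD and 14.5 ± 3.28% in MD bulls (exact permutation p = 0.134, adjusted 0.179). This difference was -2.19 percentage points, and -1.21 without MD bull 6. With the share of low quality alignments as a covariate 0 features were called by edgeR and 2271 had an unadjusted p under 0.05, and with the share outside exons 1 was called and 2376 had an unadjusted p under 0.05. The part of these measures in the difference between diets was not tested.

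**Figure D5:**
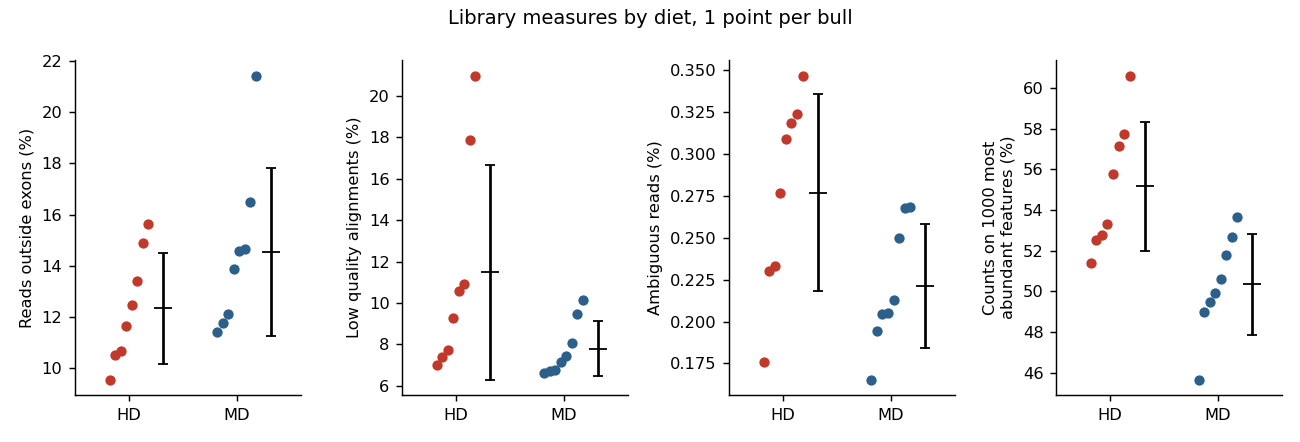
Library measures in percent for 8 HD and 8 MD bulls, with 1 point per bull and the mean and SD beside the points. Low quality alignments reach 21% in an HD bull against at most 10.1% in MD bulls, and the 1000 most abundant features hold 55.2% of counts in HD against 50.4% in MD bulls on average.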

How the data were processed

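RNA from testicular tissue of 24 bulls was sequenced by the authors with reads of 75 bases. The processing notes and methods name TopHat2 2.0.10, Bowtie 1.1.2, featureCounts and genome build UMD3.1. The deposited values are raw read counts per exon bin (210707 bins in 24525 features, 87 of which join overlapping genes), not normalized by the authors. The program that counted on bins is not given in the sources used here. If a read that crosses bins was counted in each, features with many bins carry more weight, which was not tested.

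Counts were summed over bins. Rows for unassigned reads stayed out of library sizes and tests, and their shares are percentages of all counts and unassigned reads. HD and MD bulls were compared with edgeR 4.0.16 in R 4.3.3 (TMM, filterByExpr, quasi-likelihood test, all 24 libraries, diet as the only factor, Benjamini-Hochberg adjustment, threshold 0.1 as in the study). The standard error is the fold change divided by the square root of F. For exon usage, voom and diffSplice of limma 3.58.1 were used. Library values were compared by two-sided exact permutation over 12870 regroupings, and correlations over 16 bulls with 100000 resamples, in Python 3.11.15. How much of the spread between bulls comes from counting error was not tested. No pair of libraries within a diet looked like the same library (lowest chi-square per degree of freedom 10.2 over 56 pairs).

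On simulated counts for HD against MD, edgeR recovered 150 of 200 features changed by 1 on the log2 scale with 7 false calls among 14927 features. DESeq2 recovered 165 with 25 false calls by default, and 163 with 24 false calls with the beta prior. The simulation drew features independently, with the same dispersion in all diets. It held no difference between libraries shared by many features and no larger spread in HD bulls, so its false calls need not carry over to these data. The exon usage step recovered 79 of 100 features changed by 1.5, with 20 false calls among 9007 features. Alternatives were other scalings, filters, tools, samples, 1 bin per feature, covariates, and each bull left out.

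The comparison and the gene lists were chosen with earlier results of these data known. The rule named genes that the study singles out and, for each list, the members with the smallest p. As 0 identifiers were paired with symbols, no list of pathway genes or cell type markers was applied, and the 2 higher and 2 lower features with the smallest p are given by identifier. No sequence is printed, as identifiers were not paired with the reference, and no position, as its genome build was another.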

Additional observations from a re-analysis of the deposited data

Results flagged for a closer look

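Among 46 groups of 8 bulls examined, 4 held a bull lying far from its nearest neighbour relative to the spread of its group, and about 2.3 would be found by chance. In the joined feature of COX3 and ATP6, HD bull 14 had 58.4% of the counts on bin 3, with the next HD bull at 38.5%. The same bull had 0.237% on bin 4, with the next at 0.856%. For ENSBTAG00000016894, HD bull 13 lay at 10.7 CPM, with the next HD bull at 15.6 CPM. For ENSBTAG00000007163, MD bull 19 lay at 8.36 CPM, with the next MD bull at 6.29 CPM. Both of these bulls lay on the far side of their group from the other diet, and the diets were separate with or without them.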

How the results depend on the processing

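The count of called features changed with many settings. It was 1 at an adjusted p under 0.05, 1 without the filter on low counts (4734 at an unadjusted p under 0.05), 1 with only HD and MD libraries in the fit (3475), 1 when adjusted for reads outside exons (2376) and 0 when adjusted for low quality alignments (2271 by edgeR at an unadjusted p under 0.05). It was 1298 with the most covered bin of each feature and 3547 with library size alone, where the share of higher features turned to 15.3%. It was 2170 with DESeq2's size factors, 2154 with a mean of at least 10 counts, and 2937 and 2922 with DESeq2 without and with its beta prior. Leaving out 1 bull gave 1 to 4019 features, with 3596 without HD bull 14 and 3600 without MD bull 18, and 52.0 to 64.7% higher where it could be computed. The cause was not tested.

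Exon usage was called for 2 features with only HD and MD libraries, and for 1 to 11 when a bull was left out (1 without HD bull 13, 2 without MD bull 4 or 19, 3 without MD bull 6 or HD bull 14, 8 without MD bull 18, 9 without HD bull 12 and 11 without HD bull 11). Adjusted for reads outside exons it was called for 5 features, 2 of them shared. The gap between few-bin and many-bin features was 0.24 to 0.44 on the log2 scale over all settings. Leaving out 1 bull moved the difference in bin 3 of the joined feature between -2.84 and 1.40 percentage points, and it turned negative without HD bull 14, MD bull 5 or MD bull 18. The difference in library size ran from -253406 to 1566370 counts and turned negative without HD bull 11. The joined feature of COX3 and ATP6 lost its call under 6 of 10 settings and in 9 of 16 fits without a bull. ENSBTAG00000002749 lost it only with the low quality covariate (log2 fold change 1.30, edgeR adjusted p = 0.249). With DESeq2's defaults the adjusted p was 0.00301 for ENSBTAG00000016894, 0.012 for ENSBTAG00000007163, 0.0175 for ENSBTAG00000000428 and 0.0486 for the joined feature. ENSBTAG00000000428, ENSBTAG00000016894 and ENSBTAG00000007163 each lost it in 4 of 10 settings and 8 of 16 fits, with log2 fold changes in those settings of 0.76 to 0.89, -0.71 to -0.56 and -0.82 to -0.74, and none of these features changed sign. Medians of gene lists were not run. No paired analysis was possible because the diets share no bull numbers.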
